A study of Mus musculus with 12 samples.

Results

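Interferon-stimulated genes are the genes a cell switches on when interferon binds its receptors. The 43 described here were chosen by name as commonly used members of this response, with no threshold on a measured value, though earlier results of these data were known. On the array, 41 of the 43 had at least 1 probe set annotated to that gene alone, out of 18193 genes measured in this way, and these 41 genes had 66 probe sets between them. Where a gene had several, the brightest on average over the 12 arrays stood for it. Isg15 had only a probe set annotated to more than 1 gene, and it and Ifi44 were not analysed here.

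RNA of blood progenitors sorted from mouse liver was measured on 12 Affymetrix MG430 v2 arrays, with 3 arrays in each of 4 groups. PU.1 is an ETS family transcription factor of myeloid and B cells, and the study asked what its Q202L substitution, selected for loss of contact with the coactivator c-Jun, does to gene expression. The 4 groups were short-term hematopoietic stem cells of homozygous PU.1 Q202L knock-in mice (KI ST-HSC), the same population of wild-type littermates (WT ST-HSC), granulocyte-macrophage progenitors of the wild type (WT GMP) and the GMP-like cells of the knock-in (KI GMP). No animal was treated, and the mutant allele lies in the germline, so every tissue of the KI mice carried it. The sample records give C57Bl/6 as the strain and newborn as the age, whereas the study's text describes fetal liver and its reporting form a mixed background. The records describe the ST-HSC as lin-, Sca-1+, c-kit+, CD150- and CD48+, and the study's text as CD48-. Cd48 RNA lay between 11.58 and 12.06 in the 6 ST-HSC arrays, far above the median of any array. The records give 1 gate for all GMP (lin-, Sca-1-, c-kit+, CD16/32 high, CD34+), whereas in the study's text the KI cells were only intermediate for CD34. Nothing in the records says whether replicates were separate animals or pools, so the p-values below measure only the spread between these samples.

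All values are log2 values after robust multi-array averaging (RMA), a normalization that brings the arrays to a common distribution before probes are combined. A difference of 1 on this scale is a change of a factor of 2 in signal, and signal cannot be compared between probe sets. The medians of the ST-HSC arrays lay between 5.00 and 5.10 and those of the GMP arrays between 4.70 and 4.79, so KI was compared with WT within each population. Replicates of a group correlated with each other at Pearson's r of 0.963 to 0.990 across probe sets. As the arrays read bulk RNA, fewer cells of a type and less RNA per cell cannot be told apart.

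Type I interferons bind a receptor made of IFNAR1 and IFNAR2, whose kinases phosphorylate STAT2. STAT2 and IRF9 are parts of the complex ISGF3, which binds the interferon-stimulated response element in the promoters of its target genes, whereas genes induced by interferon gamma often carry the gamma-activated site. The products include enzymes that sense or degrade viral RNA, proteins that block entry and budding, and sensors and adapters that feed back on the pathway, and stem cells carry part of this programme without infection. PU.1 itself can bind composite elements together with IRF4 or IRF8.

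Promoter windows of 300 bases, from 250 bases before to 50 after an annotated start, were taken from RefSeq (GRCm38.p6) for 33 of the 43 genes, 42 windows in all. The core of the response element, searched on both strands as GAAA, any 2 bases and GAAA again, stood in 16 of the 42 windows (38.1%), compared with 3.44% of the 32851 windows of all genes. The following stretches belong to genes whose KI and WT values are described below, and capitals mark the matches of this core, which begin and end with TTTC where the match is on the other strand. Overlapping matches run together.

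Oas1a: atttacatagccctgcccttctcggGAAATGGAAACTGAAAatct
Gbp3: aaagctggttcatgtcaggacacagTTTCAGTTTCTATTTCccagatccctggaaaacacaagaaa
Trim30a: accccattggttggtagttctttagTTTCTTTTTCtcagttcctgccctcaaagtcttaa
Ifit1: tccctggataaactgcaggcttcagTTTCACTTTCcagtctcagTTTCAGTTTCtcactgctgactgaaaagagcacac
Rsad2: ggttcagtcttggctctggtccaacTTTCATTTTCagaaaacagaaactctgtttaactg
Oas3: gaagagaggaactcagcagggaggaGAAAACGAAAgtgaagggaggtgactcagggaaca
Ifitm2: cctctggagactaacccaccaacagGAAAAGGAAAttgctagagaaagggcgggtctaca

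All 7 are written 5' to 3' in the direction of transcription and end before the annotated start. The Oas1a stretch is chr5:120907526-120907570 on the minus strand and the Gbp3 stretch chr3:142559974-142560039 on the plus strand. That of Trim30a is chr7:104465195-104465254 (minus) and that of Ifit1, which holds 2 separate matches, is chr19:34640760-34640838 (plus). Rsad2 is shown from chr12:26456538-26456597 (minus), Oas3 from chr5:120777700-120777759 (minus) and Ifitm2 from chr7:140955973-140956032 (minus). The map of motif matches gives the position of every match of 3 of the motifs among the genes.

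**Figure D1:**
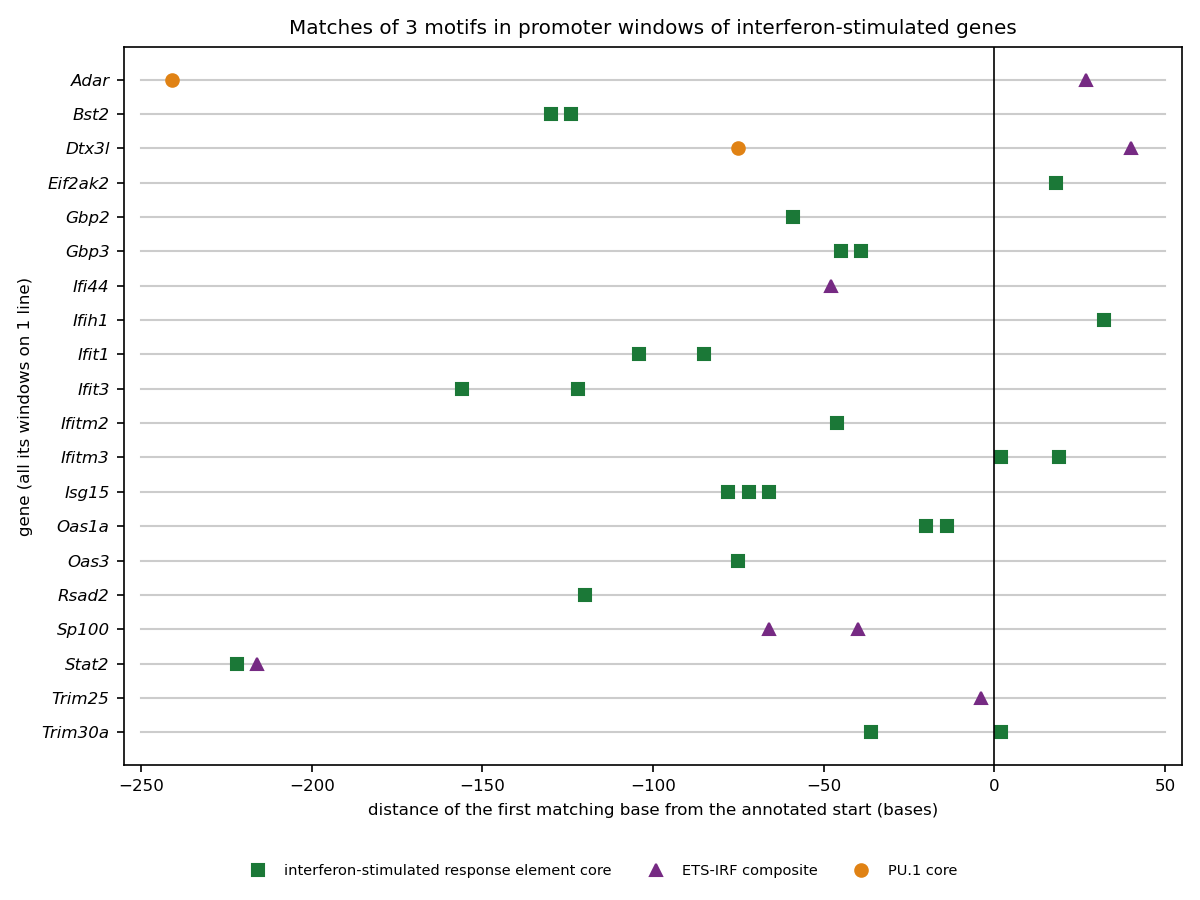
Positions of 3 motifs in the promoter windows of the genes that hold at least 1 match. The horizontal axis is the distance in bases of the first matching base from the annotated start (black line), each grey line is a gene with all its windows overlaid, and the symbols mark the 3 motifs. Green squares, the response element core, are the most frequent symbol.

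In ST-HSC, 8 of the 41 genes were lower in KI than in WT and 0 were higher, at a Benjamini-Hochberg adjusted p under 0.05 in limma over all probe sets (1.68% of all genes were lower and 1.33% higher). At an unadjusted p under 0.05, 20 were lower and 1 was higher (7.32% and 7% of all genes). SAM, the permutation method named in the study's methods, called 2 lower (Parp12 and Rtp4) and 0 higher, with 162 of all 45037 probe sets called. The 8 were Oas1a, Ifit1, Ube2l6, Gbp3, Parp12, Trim30a, Mx1 and Oas2. The median KI minus WT difference of the 41 was -0.87, compared with -0.02 over all genes, and the difference was below 0 for 39 of the 41 (52.5% of all genes). The 3 KI arrays lay below the 3 WT arrays without overlap for 24 of the 41 genes (11.2% of all genes) and above them for 1, Ifitm1 (10.9%). The other 16 overlapped. With 3 arrays against 3, an exact permutation test cannot give a two-sided p below 0.1, so the tests below are limma's, whose spread is shared across probe sets.

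**Figure D2:**
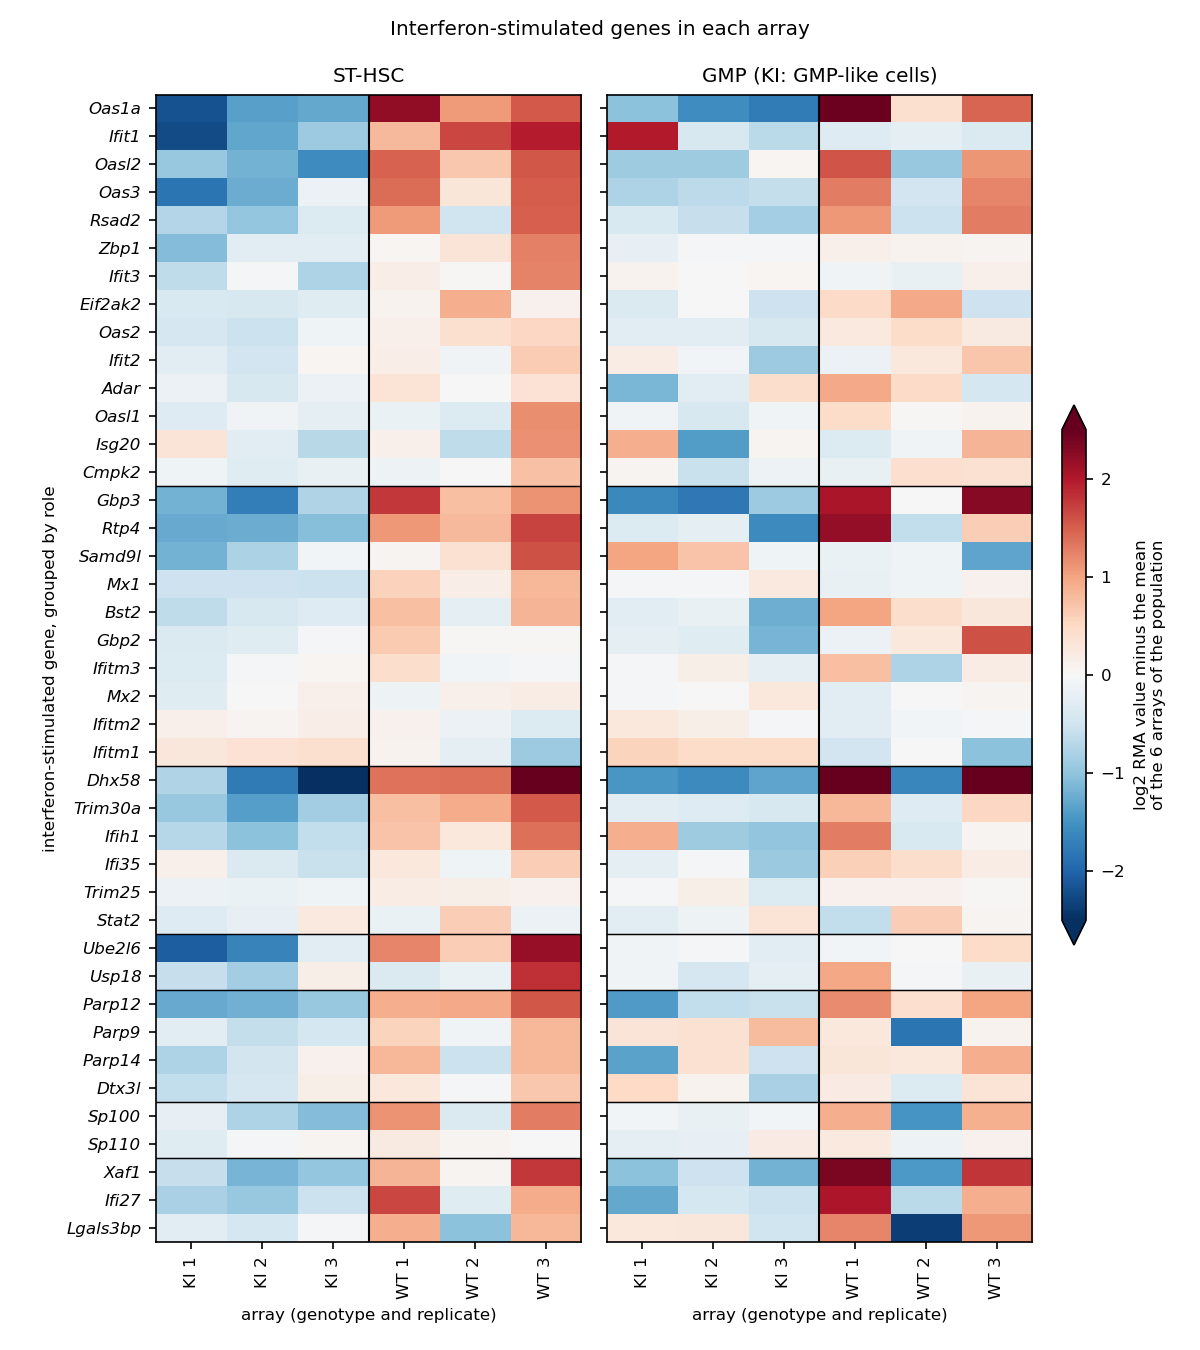
Heat map of the 41 genes (rows, grouped by role) in the 12 arrays (columns; 3 KI and 3 WT for each population). Colour is the log2 RMA value minus the mean of the 6 arrays of that population, from blue (lower) to red (higher), and saturates at 2.5. In ST-HSC most rows are blue in KI and red in WT, whereas in GMP the WT replicate 2 column often looks like the KI columns.

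Among the RNA-binding and nucleotide-directed effectors, 3 of 14 were lower in KI ST-HSC. Oas1a, which makes the 2'-5' oligoadenylates that activate RNase L, was 5.55, 6.36 and 6.45 in the KI arrays and 9.95, 8.80 and 9.25 in the WT arrays. The gap between the groups was wider than the range within either of them. The difference was -3.21 ± 0.48 (SE, n = 3 and 3; limma adjusted p = 0.00611), that is 9.27-fold lower. Oas1a has close relatives in the genome, so its probe set may also read them. Ifit1, whose product binds viral RNA that lacks the host cap marks, was 4.07, 5.01 and 5.39 in KI ST-HSC and 7.11, 7.97 and 8.27 in WT ST-HSC. Here too every KI value lay below every WT value, and the difference was -2.96 ± 0.62 (limma adjusted p = 0.0358). Oas2, a second oligoadenylate synthetase, was 4.70, 4.57 and 5.01 in KI and 5.25, 5.52 and 5.62 in WT. The groups were close but apart, with a difference of -0.70 ± 0.15 (limma adjusted p = 0.0458).

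Both Ifit1 and Oas2 depended on single libraries. The call on Ifit1 held only when the array left out was WT ST-HSC replicate 1 or 1 of the 3 KI GMP arrays, and was lost with any other (limma adjusted p of 0.0539 to 0.136). For Oas2 it held only without KI ST-HSC replicate 3 or WT ST-HSC replicate 1 (0.0537 to 0.190 otherwise), and it was lost in a fit of the 6 ST-HSC arrays alone (0.137). Oas1a stayed below the threshold whichever of the 12 arrays was left out.

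The other 11 effectors did not pass, with differences from -2.46 (Oasl2, limma adjusted p = 0.0537) to -0.39 (Cmpk2). Oas3, the third synthetase, was 5.06, 5.66 and 6.74 in KI and 7.20 to 8.40 in WT, a difference of -2.15 (adjusted p = 0.0778 in limma). Rsad2 (viperin, a radical enzyme that makes a chain-terminating nucleotide) read 7.26, 7.02 and 7.65 in KI and 9.05, 7.49 and 9.50 in WT. WT replicate 2 lay within the KI range, and the difference of -1.37 had a limma adjusted p of 0.302. Of its 2 dimmer probe sets, 1 gave -2.18 (limma adjusted p = 0.00608), with WT arrays at 6.61, 5.41 and 6.49 and KI arrays from 3.61 to 4.23. The other gave -1.29 (limma adjusted p = 0.184), with WT replicate 2 at 4.16 inside the KI range. Over the 24 dimmer probe sets of genes not called in ST-HSC, 2 were lower and 0 higher, namely the first of these and 1 of Dhx58.

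The guanylate-binding and Mx proteins are interferon-induced GTPases of the dynamin superfamily, and the IFITM proteins and tetherin (Bst2) act at membranes. Of 10 genes in this group, Gbp3 and Mx1 were lower in KI ST-HSC. Gbp3 was 5.64, 5.09 and 6.06 in KI and 8.59, 7.57 and 7.94 in WT, without overlap. Its difference was -2.44 ± 0.55 (limma adjusted p = 0.0493), and this held only when the array left out was WT GMP replicate 2 or 3 (0.0588 to 0.206 with each of the others). Mx1 was 3.88, 3.88 and 3.86 in KI and 4.98, 4.57 and 5.23 in WT, and only WT replicate 3 lay above the median of its array. The 3 KI values almost coincided, and the difference was -1.05 ± 0.17 (limma adjusted p = 0.0100). It passed without any 1 of the 12 arrays, but not in a fit of the 6 ST-HSC arrays alone (0.0567). Both filters on low values in the closing section left Mx1 out.

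The IFITM genes encode small membrane proteins that hinder viral fusion, and Ifitm1 and Ifitm2 had the 2 positive differences among the 41. Ifitm1 was 12.74, 12.81 and 12.85 in KI ST-HSC and 12.54, 12.19 and 11.54 in WT ST-HSC. All KI arrays lay above all WT arrays, with a difference of 0.71 ± 0.28 that did not pass (limma adjusted p = 0.295). Ifitm2 differed by 0.25 and Ifitm3 by -0.22. Rtp4, a receptor chaperone of the interferon response, was 6.53, 6.54 and 6.72 in KI and 8.88, 8.60 and 9.48 in WT, yet its difference of -2.39 had a limma adjusted p of 0.0808.

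Of the 6 sensors and signalling genes, Trim30a was lower in KI ST-HSC. Trim30a, a TRIM protein that restrains NF-kappaB signalling, was 7.05, 6.61 and 7.13 in KI and 8.74, 8.91 and 9.52 in WT. Again the gap between the groups was wider than the range within either, and the difference was -2.13 ± 0.29 (limma adjusted p = 0.00378). Its call held without any 1 of the 12 arrays. A dimmer Trim30a probe set, the 1 other of any gene called in ST-HSC, gave -1.33 and did not pass (limma adjusted p = 0.170), and both may also read close relatives. Dhx58 (LGP2, a helicase that modulates RIG-I and MDA5) had the most negative difference of the 41, -3.52, from 6.25, 5.23 and 4.23 in KI and 8.35, 8.36 and 9.55 in WT. The groups did not overlap, but the spread of the 4 groups gave an SE of 1.06 and a limma adjusted p of 0.148. A dimmer Dhx58 probe set, with KI arrays at 3.94 to 4.46 and WT arrays at 6.75 to 7.15, gave -2.71 (limma adjusted p = 0.0137), and the dimmest gave -0.23 (0.928). Ifih1 (MDA5, a sensor of long double-stranded RNA) differed by -1.56 (limma adjusted p = 0.224), and Stat2 by -0.20.

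In the ISG15 system, Ube2l6, the conjugating enzyme for ISG15, was 3.72, 4.10 and 5.49 in KI ST-HSC and 6.99, 6.40 and 7.96 in WT ST-HSC. The KI values were widely spread but stayed below WT, with a difference of -2.68 ± 0.46 (limma adjusted p = 0.0123). Without KI ST-HSC replicate 2 the limma adjusted p was 0.0708, and with the 6 ST-HSC arrays alone it was 0.0870. Usp18, which removes ISG15 and damps receptor signalling, differed by -0.85 (limma adjusted p = 0.578). Among the ADP-ribosyltransferases, Parp12, which inhibits viral translation, was 6.88, 6.93 and 7.19 in KI and 9.03, 9.07 and 9.68 in WT. The groups were tight and apart, and the difference was -2.26 ± 0.28 (limma adjusted p = 0.00200), 4.80-fold lower. Parp12 passed without any 1 of the 12 arrays. Parp9, Parp14 and Dtx3l, the E3 ligase partner of PARP9, differed by -0.87, -0.75 and -0.59 without passing.

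**Figure D3:**
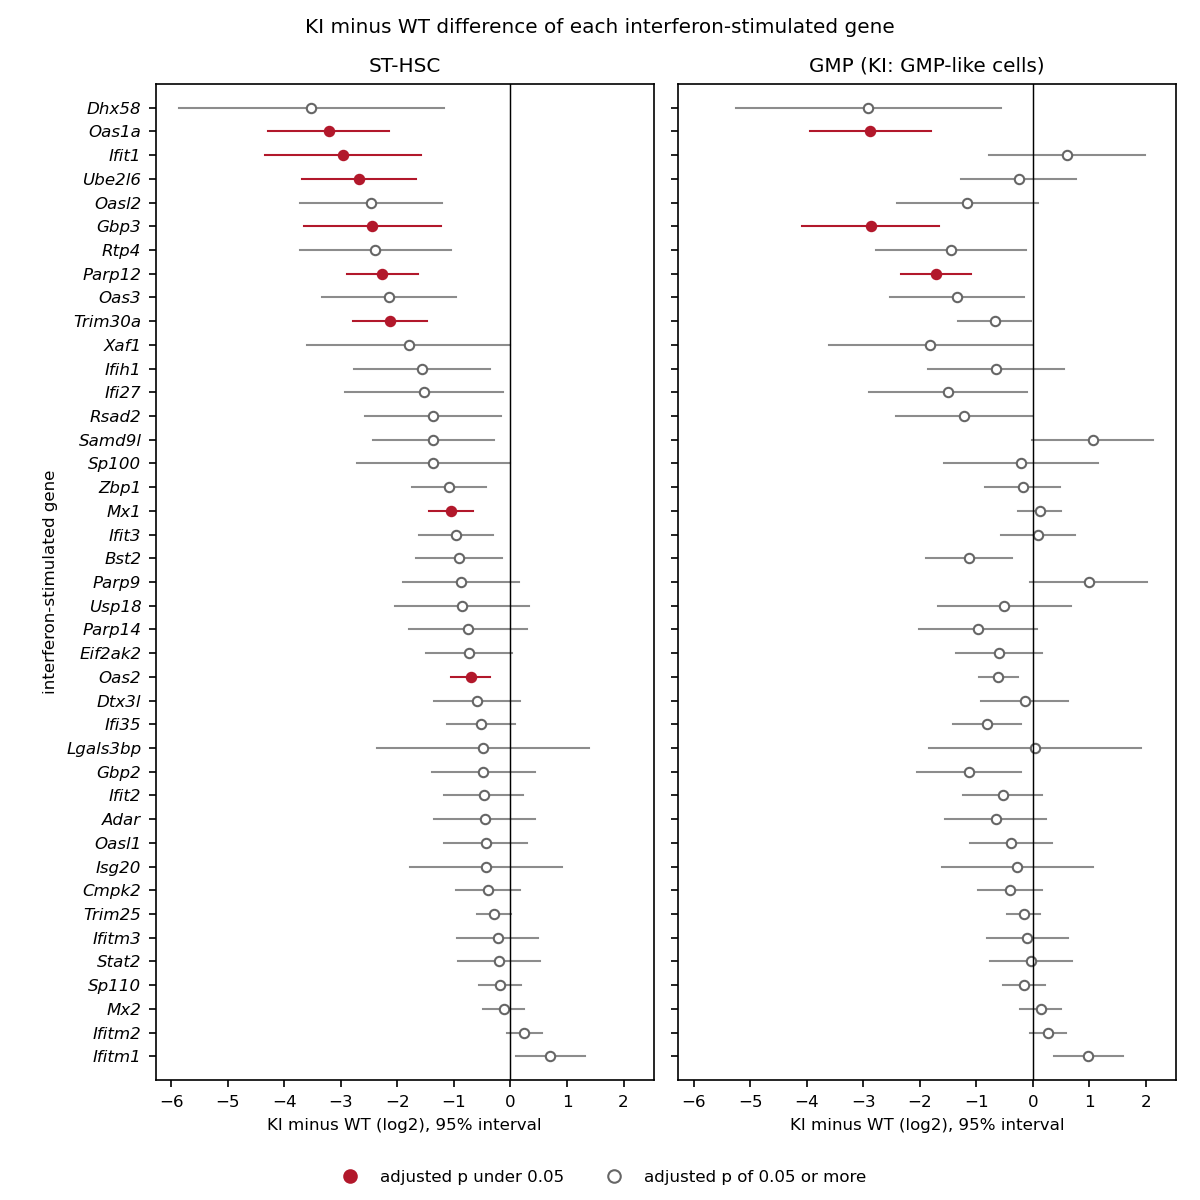
KI minus WT differences (log2) of the 41 genes with 95% intervals from limma, ST-HSC on the left and GMP on the right, in the order of the ST-HSC differences. Filled red points have an adjusted p under 0.05, which holds for 8 genes in ST-HSC and 3 in GMP, all to the left of 0.

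In GMP, 3 of the 41 genes were lower in KI and 0 were higher (1.4% of all genes were lower and 1.19% higher). At an unadjusted p under 0.05, 14 were lower and 1 was higher (9.19% and 6.67% of all genes), whereas SAM, and limma on the 6 GMP arrays alone, called 0. The 3 were Oas1a, Parp12 and Gbp3, all of which were also lower in KI ST-HSC. Over all genes, 0.511% were lower in both populations. The median difference of the 41 was -0.50 (-0.03 over all genes), and 32 of the 41 differences were below 0 (54.9% of all genes). KI arrays lay below WT arrays without overlap for 10 of the 41 (11.1% of all genes) and above them for 4, namely Samd9l, Parp9, Ifitm1 and Ifitm2 (8.26%). In 8 genes KI lay below WT without overlap in both populations (3.12% of all genes), and these were Oas1a, Oas2, Oas3, Zbp1, Gbp2, Gbp3, Bst2 and Parp12.

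Oas1a was 5.53, 4.99 and 4.80 in KI GMP and 8.99, 6.95 and 8.01 in WT GMP. The WT arrays were far apart but all above KI, with a difference of -2.88 ± 0.48 (limma adjusted p = 0.0142), 7.34-fold lower. Without KI GMP replicate 3 the limma adjusted p was 0.0564. Parp12 was 4.77, 5.58 and 5.63 in KI and 7.37, 6.60 and 7.16 in WT, again without overlap. The difference was -1.72 ± 0.28 (limma adjusted p = 0.0123), and it passed without any 1 of the 12 arrays. Gbp3 was 4.23, 4.06 and 4.93 in KI and 7.87, 5.83 and 8.12 in WT. WT replicate 2 lay between the KI arrays and the other WT arrays, and the difference was -2.87 ± 0.55 (limma adjusted p = 0.0268). The call on Gbp3 was lost without KI GMP replicate 1, KI GMP replicate 2, WT GMP replicate 1 or WT GMP replicate 3 (0.0684 to 0.0870).

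Of the genes called in ST-HSC, Ube2l6, Mx1, Ifit1 and Trim30a had overlapping KI and WT values in GMP. Ube2l6 was 3.20, 3.26 and 3.03 in KI GMP and 3.21, 3.29 and 3.74 in WT GMP, all below the median of their arrays, a difference of -0.25 (limma adjusted p = 0.887). Mx1 was 4.15, 4.16 and 4.44 in KI and 4.0, 4.09 and 4.30 in WT, also below the medians, and differed by 0.12 (limma adjusted p = 0.850). Ifit1 was 5.70, 3.31 and 3.05 in KI and 3.40, 3.48 and 3.36 in WT, where only KI replicate 1 lay above its array's median. Trim30a was 6.85, 6.82 and 6.74 in KI and 7.97, 6.81 and 7.66 in WT, with WT replicate 2 inside the KI range and a difference of -0.68 (limma adjusted p = 0.323). Oas2 was 4.82, 4.82 and 4.68 in KI and 5.32, 5.54 and 5.29 in WT GMP, without overlap, and its difference of -0.61, close to that in ST-HSC, missed the threshold (limma adjusted p = 0.0766). The interaction of Oas2, the test of the difference between the populations, was 0.09. Cmpk2, a nucleotide kinase next to Rsad2 in the genome, differed by -0.41 with its brightest probe set (limma adjusted p = 0.542). A dimmer Cmpk2 probe set read 3.90, 2.97 and 2.98 in KI GMP and 5.08, 5.48 and 5.36 in WT GMP, a difference of -2.03 (limma adjusted p = 0.00428), and was the 1 called of the 25 dimmer probe sets of genes not called in GMP.

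The 4 genes with KI above WT in GMP did not pass either. Samd9l, a cytoplasmic antiviral protein that limits proliferation, was 5.81, 5.53 and 4.72 in KI and 4.66, 4.71 and 3.50 in WT, a difference of 1.06 (limma adjusted p = 0.355). Parp9 was 7.40, 7.45 and 7.87 in KI and 7.34, 5.26 and 7.16 in WT, a difference of 0.99 (limma adjusted p = 0.375). For both genes the nearest KI and WT values almost touched. Ifitm1 was 12.91, 12.80 and 12.80 in KI GMP and 11.87, 12.36 and 11.32 in WT GMP, a difference of 0.98 ± 0.28 (limma adjusted p = 0.108). Its KI values were tight and its WT values spread, as in ST-HSC. Ifitm2 differed by 0.26.

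Whether the KI minus WT difference itself depended on the population was tested as an interaction in the same limma fit. Of the 41 genes, 0 passed in either direction (0.022% and 0.0275% of all genes did), and 7 had an unadjusted p under 0.05 (8.45% of all genes). Ifit1 had the largest interaction, 3.57 ± 0.88 (limma adjusted p = 0.244), followed by Ube2l6 at 2.43 and Samd9l at 2.42 (limma adjusted p of 0.288 and 0.320). Mx1 had 1.17 ± 0.24 (limma adjusted p = 0.154) and Trim30a 1.45 (0.334). The genes lower in KI ST-HSC and not in KI GMP were therefore not shown to differ between the populations. For Oas1a, Gbp3 and Parp12 the interaction was 0.34, -0.43 and 0.55, with 95% intervals of -1.18 to 1.85, -2.14 to 1.29 and -0.33 to 1.43.

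**Figure D4:**
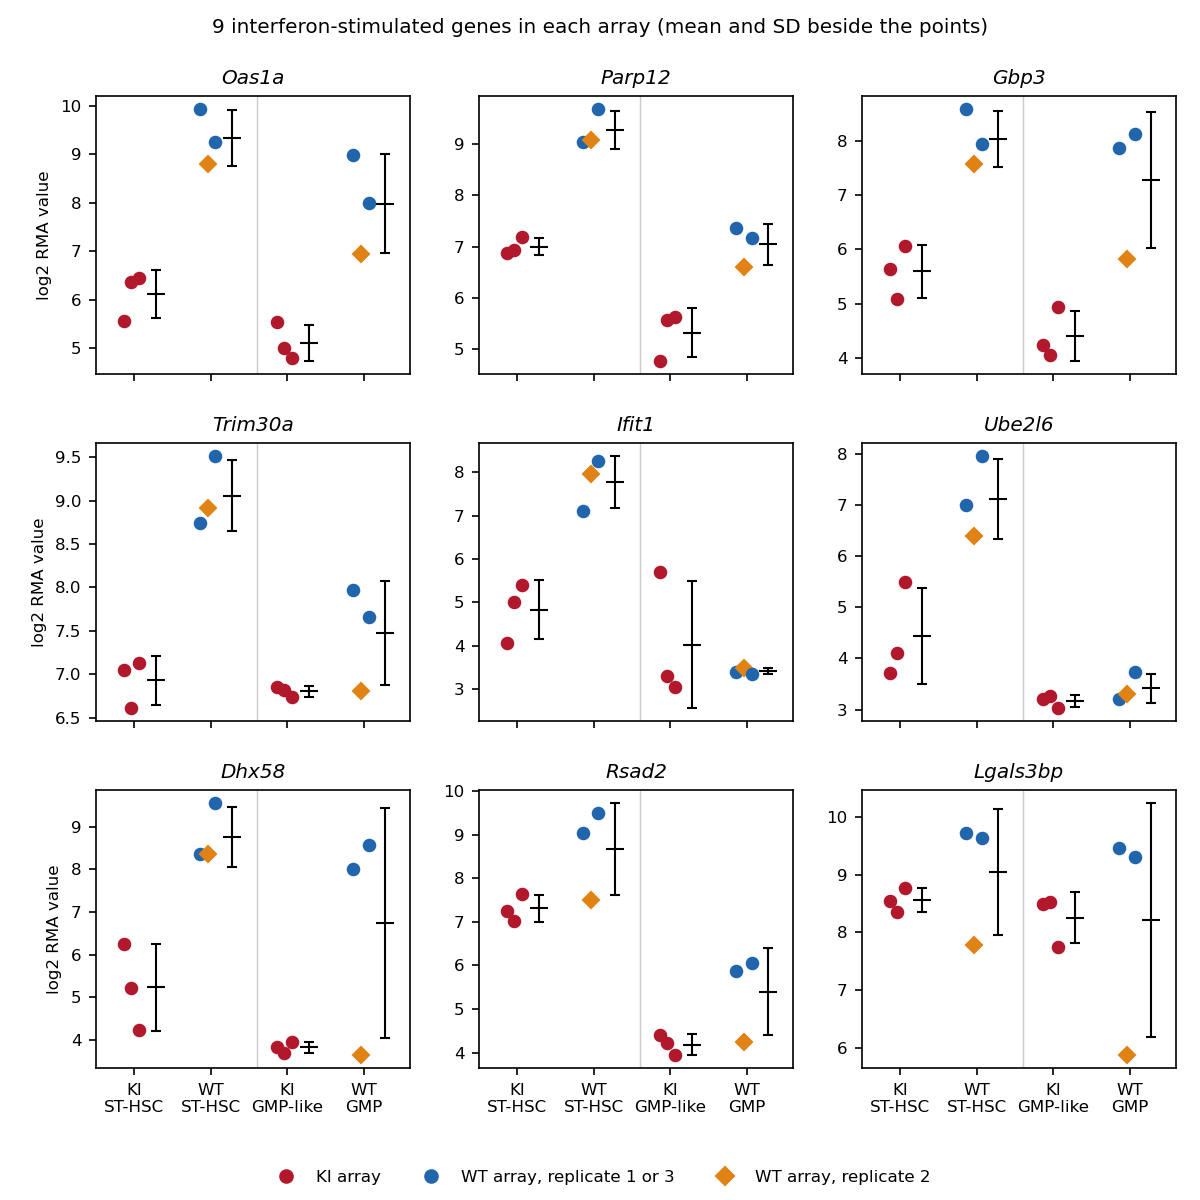
Log2 RMA values of 9 interferon-stimulated genes in each array, with each group's mean and SD (n = 3) beside the points. KI arrays are red, WT replicates 1 and 3 blue circles and WT replicate 2 an orange diamond. For Dhx58, Rsad2 and Trim30a in GMP the diamond sits at the level of the KI arrays.

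WT replicate 2 differed from the other WT arrays in many of the 41 genes. In ST-HSC the value of WT replicate 2 minus the mean of WT replicates 1 and 3 had a median of -0.55 over the 41 genes (0.03 over all genes). It was below -1 for 10 genes and above 1 for 0, compared with 4.79% and 3.91% of all genes. In GMP the median was -0.33 (0.04 over all genes), and it was below -1 for 15 genes and above 1 for 0 (3.22% and 2.83% of all genes). WT replicate 2 was the lowest of the 3 WT arrays for 25 genes in ST-HSC and 21 in GMP (32.1% and 28.4% of all genes). In 22 genes of ST-HSC (9.08% of all genes) and 15 of GMP (8.46%), WT replicates 1 and 3 lay above WT replicate 2 and all KI arrays. WT replicate 2 was singled out because it was low for some of these genes, so its gaps are given as a description, with no test.

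The genes with the largest gaps were partly the same in both populations. Lgals3bp, a secreted galectin-binding glycoprotein, was 9.72, 7.78 and 9.63 in WT ST-HSC and 8.55, 8.36 and 8.78 in KI ST-HSC. In GMP it was 9.46, 5.87 and 9.31 in WT and 8.49, 8.52 and 7.74 in KI. In both populations WT replicate 2 was below every KI array and the other WT arrays above, and KI minus WT was -0.48 and 0.04. Sp100, a nuclear body protein, was 9.32, 7.84 and 9.48 in WT ST-HSC, beside KI values of 7.99, 7.43 and 7.12. In GMP Sp100 was 8.27, 5.89 and 8.25 in WT and 7.29, 7.18 and 7.30 in KI, so WT replicate 2 was again the odd array.

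Dhx58 had the largest gap, -4.64 in GMP, where WT read 8.0, 3.64 and 8.57 and KI read 3.83, 3.69 and 3.97. In GMP the Dhx58 value of WT replicate 2 was below all KI values, whereas in ST-HSC WT replicates 1 and 2 were alike. Xaf1, a proapoptotic zinc finger protein, was 7.42, 3.63 and 6.85 in WT GMP and 4.04, 4.53 and 3.88 in KI GMP. In ST-HSC, Xaf1 was 8.36, 7.57 and 9.28 in WT and 6.93, 6.35 and 6.53 in KI, without overlap. Oasl2, an OAS-like protein with ubiquitin-like domains, was 5.80, 3.28 and 5.31 in WT GMP and 3.33, 3.32 and 4.27 in KI GMP. For Xaf1 and Oasl2 as for Dhx58, WT replicate 2 in GMP was the lowest of the 6 arrays.

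Rsad2 was 5.88, 4.25 and 6.06 in WT GMP and 4.40, 4.21 and 3.93 in KI GMP, with WT replicate 2 in the KI range as it was in ST-HSC. Ifi27, a small membrane protein, was 10.54, 8.58 and 9.81 in WT ST-HSC and 8.06, 7.92 and 8.34 in KI ST-HSC. In ST-HSC its WT replicate 2 lay just above KI, while in GMP it lay within KI, with WT at 10.28, 7.59 and 9.15 and KI at 6.99, 7.81 and 7.71. Parp14, a macrodomain ADP-ribosyltransferase, was 8.02, 6.67 and 8.04 in WT ST-HSC and 6.43, 6.74 and 7.30 in KI ST-HSC. In ST-HSC, Parp12, Trim30a, Ifit1 and Oas2 had WT replicate 2 nearer to the mean of the other WT arrays, at -0.28, -0.22, 0.27 and 0.08 from it. The other genes called there, Oas1a, Gbp3, Mx1 and Ube2l6, had WT replicate 2 further below it, at -0.80, -0.69, -0.54 and -1.07.

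**Figure D5:**
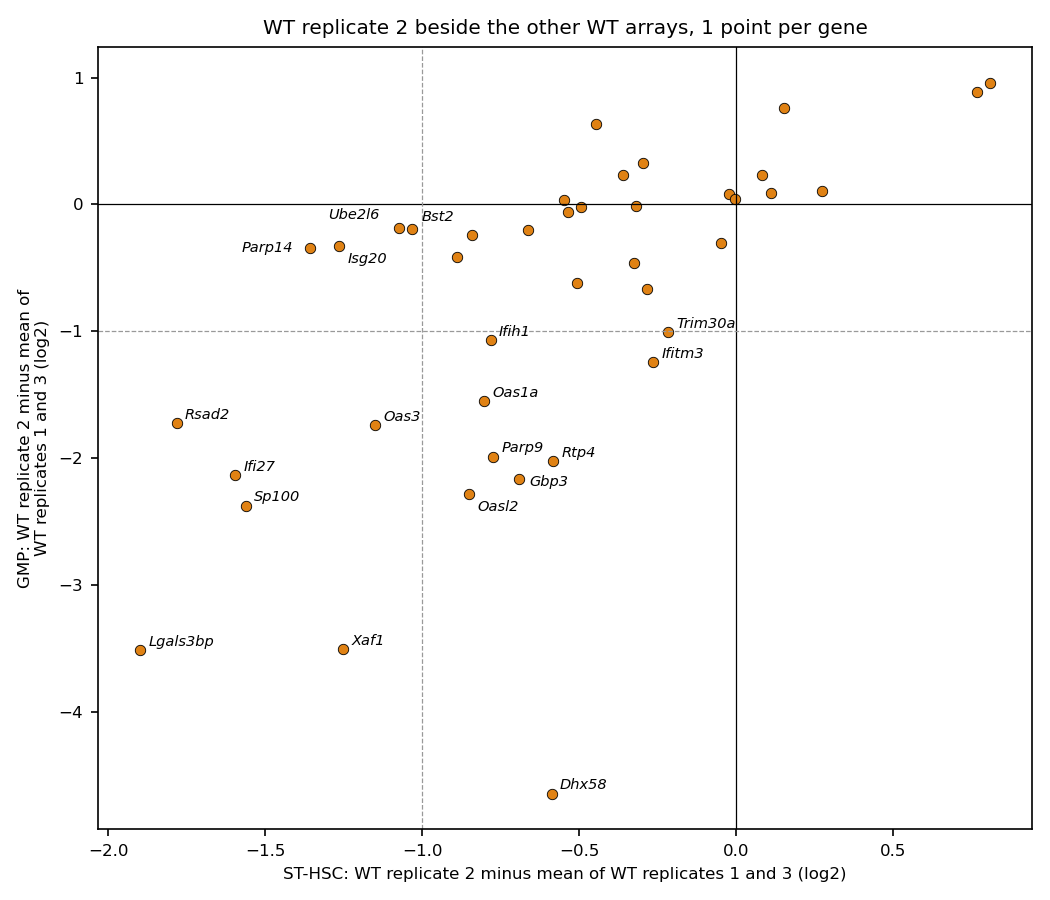
Value of WT replicate 2 minus the mean of WT replicates 1 and 3 (log2), ST-HSC on the horizontal and GMP on the vertical axis, 1 point for each of the 41 genes. Dashed lines mark -1, and the genes beyond a line are named. 6 genes lie below -1 in both populations, and none lies above 1 in either.

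WT replicate 2 also differed from the other WT arrays in sex-linked genes. Xist, the RNA that silences an X chromosome in female cells, was 11.74, 3.70 and 11.25 in the WT ST-HSC arrays. In the WT GMP arrays it was 10.67, 3.46 and 11.01, and the 6 KI arrays lay between 2.98 and 3.78, so that WT replicate 2 read like KI. The Y-linked Kdm5d went the other way, at 2.04 to 3.13 in WT replicates 1 and 3 and 9.07 to 9.90 in all others. WT replicate 2 was thus the only WT array of each population with the Xist and Kdm5d levels of the KI arrays. No KI array had the Xist and Kdm5d levels of WT replicates 1 and 3. Differences that go with these levels and differences that go with genotype therefore cannot be fully told apart here. At the levels of the KI arrays, WT was represented by replicate 2 alone. The part of this in the results was not tested, and the fits that follow are descriptions that cannot separate them.

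Without WT replicate 2 of both populations, 15 of the 41 genes were lower in KI ST-HSC (1.85% of all genes) and 9 in KI GMP (1.35%). In neither population was any of the 41 higher (1.14% and 1.21% of all genes). Leaving out an array in which a gene was low widens that gene's difference and narrows its WT spread, so these fits are given as a description, without p-values. The genes added in ST-HSC were Dhx58, Ifi27, Oas3, Oasl2, Parp9, Rsad2, Rtp4, Sp100 and Xaf1, with Dhx58 at -3.72, while Ifit1 and Oas2 were lost. In GMP the additions were Dhx58, Ifi27, Oas3, Oasl2, Rsad2 and Xaf1, with Dhx58 at -4.45 and Xaf1 at -2.98. With WT replicate 2 as the only WT array, which was then assumed to vary like the other groups, 4 genes were lower in KI ST-HSC and 0 higher (1.91% and 1.56% of all genes). These were Oas1a at -2.68, Parp12 at -2.07, Trim30a at -1.98 and Eif2ak2 at -1.27. In GMP 0 were then lower and 2 were higher (0.643% and 0.517% of all genes), Parp9 at 2.31 and Lgals3bp at 2.38. Xist was high only in WT replicates 1 and 3 of each population. With Xist as a covariate, KI minus WT therefore rested largely on WT replicate 2, so no p-values are given. In that fit Oas1a, Parp12 and Trim30a were lower in KI ST-HSC, at -2.40, -1.96 and -1.73, and 0 were higher (1.19% of all genes were lower and 1.14% higher). In GMP that fit left 0 lower and 1 higher (0.781% of all genes in each direction), Parp9 at 1.90, which again rested on its low WT replicate 2.

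The mean log2 value over the 41 genes shows the same split. It was 6.79, 6.79 and 7.02 in the KI ST-HSC arrays and 8.04, 7.64 and 8.40 in the WT ST-HSC arrays. In GMP it was 6.18, 6.08 and 5.97 in KI and 7.03, 6.16 and 6.88 in WT. KI and WT were apart in ST-HSC, whereas in GMP WT replicate 2 lay among the KI arrays. The mean over all genes lay between 6.30 and 6.35 in ST-HSC and between 6.08 and 6.15 in GMP.

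Other genes of the pathway were taken from lists by role. Of 8 measured interferon genes, 0 were called in either population and 0 had an unadjusted p under 0.05 in limma. Their mean log2 value per array was 3.73 to 4.24, below the medians. In each population, though, 2 of the 8 lay above the array median in all 6 arrays, and 5 in none. Of 6 receptor chains, Ifnar2, which binds type I interferon, and Ifngr2, the signalling chain for interferon gamma, were lower in KI ST-HSC, by -1.02 and -1.41 (limma adjusted p of 0.00826 and 0.0327), and 0 were called in GMP. Of 11 kinases, STATs and interferon regulatory factors, 3 were lower in KI ST-HSC. Irf7, the factor that amplifies interferon production, was 5.36, 5.74 and 5.38 in KI and 7.63, 6.92 and 8.19 in WT (-2.09, limma adjusted p = 0.00302). Irf9, the DNA-binding part of ISGF3, differed by -1.70 (limma adjusted p = 0.0294). Irf8, a partner of PU.1 in monocyte and dendritic development, differed by -6.30 (limma adjusted p = 3.66e-05) and was the 1 of this list lower in KI GMP, at -3.18 (limma adjusted p = 0.00291).

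Of 12 nucleic acid sensors and adapters, Tlr3, the endosomal receptor for double-stranded RNA, was lower in KI ST-HSC (-6.44, limma adjusted p = 0.00111). Cgas, the cytosolic DNA sensor, was lower in KI GMP (-1.33, limma adjusted p = 0.00214). Of 8 negative regulators, 0 were called in either population (2 lower and 1 higher in ST-HSC, and 1 lower and 2 higher in GMP, at an unadjusted p under 0.05 in limma). Of 30 further interferon-induced genes, 7 were lower in KI ST-HSC and 0 higher, with a median difference of -0.92. They were Irf7 and Irf9 again, the peptide transporter Tap1 (-1.56), the immunoproteasome subunit Psmb8 (-1.20), Trim34a (-1.22), Phf11d (-2.70) and Slfn5 (-2.95). In KI GMP 3 of the 30 were lower, namely Irgm2, Psmb8 and Psmb9 (-1.86, -1.19 and -1.80). Psmb8 was the 1 gene of this list called in both.

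Markers of other cell types also differed between KI and WT, and their part in these results was not tested. Of 16 monocyte and macrophage markers, 5 were lower in KI ST-HSC and 3 in KI GMP, among them Csf1r, Mpeg1 and Ctss in both. The mean of this list was 4.08 to 4.35 in KI ST-HSC and 6.15 to 6.57 in WT ST-HSC, and 4.25 to 4.43 in KI GMP and 5.42 to 5.84 in WT GMP. Conventional dendritic markers (2 of 5 lower in KI ST-HSC, Itgax and Cd74) had means of 3.81 to 4.20 in KI ST-HSC and 6.15 to 8.15 in WT ST-HSC. In GMP these means were 3.55 to 3.83 in KI and 3.86 to 4.83 in WT. Of the B lymphoid markers, 3 of 8 were lower in KI ST-HSC (means of 4.37 to 4.44 beside 5.89 to 7.12 in WT) and 1 in KI GMP. Plasmacytoid dendritic cells are the strongest interferon producers, and of 9 of their markers 0 were called in either population (2 lower in ST-HSC and 1 in GMP at an unadjusted p under 0.05 in limma). The list mean in ST-HSC was 5.90 to 6.19 in KI and 6.29 to 6.76 in WT, and in GMP 5.32 to 5.64 and 5.45 to 5.49. Other lists were higher in KI ST-HSC. Of 7 erythroid markers, Alas2 and Car1, which make haem and hydrate carbon dioxide, were higher there (0.97 and 3.32), with list means of 7.99 to 8.28 in KI and 6.68 to 6.91 in WT. In GMP the erythroid means were 6.13 to 6.51 in KI and 5.02 to 5.77 in WT, and 0 were called (3 higher and 0 lower at an unadjusted p under 0.05 in limma). Of 6 megakaryocyte markers, the platelet proteins Pf4 and Gp1bb were higher in KI ST-HSC (3.49 and 1.72; means of 6.58 to 6.82 beside 5.18 to 5.83) and Gp1bb in KI GMP. Of 8 T and NK markers, Nkg7 and Prf1 were higher and Klrd1 was lower in KI ST-HSC, and Cd3g and Prf1 were higher in KI GMP. Of 5 hepatocyte markers, Afp was lower in both KI populations, by -1.53 and -1.92. Of 7 granulocyte-macrophage progenitor markers, Ms4a3 was lower in both KI populations and Cebpa was higher in KI ST-HSC. Of 6 neutrophil markers Ltf was lower in KI GMP, and of 7 endothelial and stromal markers Pecam1 was higher in KI GMP, with 0 called in ST-HSC in either list (1 neutrophil marker higher, and 1 endothelial and stromal marker lower and 2 higher, at an unadjusted p under 0.05 in limma). Of 10 gate markers and stem cell genes, Cd34 and Flt3 were lower in KI ST-HSC, and Slamf1 (CD150) and Fcgr3 (CD16) were higher, at 1.92 and 1.68. Cd34 was lower in both KI populations (9.33 to 9.87 beside 10.98 to 11.06 in ST-HSC, and 6.66 to 6.86 beside 9.53 to 9.80 in GMP).

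Set beside the promoter stretches shown above, 6 of the 8 genes lower in KI ST-HSC had a promoter window, and 4 of the 6 held the response element core (Oas1a, Gbp3, Ifit1 and Trim30a). Parp12 and Ube2l6 had windows without it. Of the 14 measured genes with the core in a window, 4 were lower in KI ST-HSC and 2 in KI GMP, with median differences of -1.17 and -0.66. Of the 17 with windows but no core, 2 and 1 were lower, with medians of -0.48 and -0.28. Over all genes, with or without the core, 1.68% and 1.4% were lower. These counts are small, and the split by the core was not tested. Genes with the core were not uniform, since Ifitm2 and Ifitm3 held it and differed by 0.25 and -0.22 in ST-HSC. The ETS-IRF composite, searched as GGAA, any 2 bases and GAAA, stood in 7 of the 42 windows (16.7%, compared with 2.72% of all windows), and the PU.1 core GAGGAAGT in 2 (4.76%, compared with 3.2%). The 7 windows belonged to 6 genes, since 2 overlapping Sp100 windows held the same match. The gamma-activated site TTCNNNGAA and the AP-1 site TGANTCA each stood in 8 windows (19.0%), compared with 8.3% and 7.81% of all windows. Matches of different motifs can overlap, as the gamma-activated site and the response element core did in Bst2 and Ifitm3. The shares of the motifs are therefore not independent. A match is a string of letters and not evidence of binding.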

How the data were processed

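The deposited values were log2 expression values that the authors made with RMA from Affymetrix MG430 v2 arrays of linearly amplified RNA; array scans were not used here, and no version was given in the sources used here. Of 45101 probe sets, 64 controls were left out. Symbols came from GEO's platform annotation (34945 probe sets with 1 symbol, 932 with several, 9160 with none). A model with 4 group means over 12 arrays was fitted to the other 45037 with limma 3.58.1 in R 4.3.3 (degrees of freedom: 8 residual, 2.52 prior). P-values were adjusted after Benjamini-Hochberg over all of them, with a threshold of 0.05. Each gene counted once, by its brightest probe set. The number of arrays limits the precision. Genes given with every array were those called and the 5 with the largest falls of WT replicate 2 in each population; Samd9l, Parp9, Ifitm1, Oas3, Rtp4 and the dimmer probe sets were added after their values were seen. The genes and lists were chosen with earlier results of these data known. SAM, which the study's methods name, was an alternative, as its calls carry no adjusted p. Each test was first tested on simulated data, and the results of that are not given here. Alternatives are in the closing section.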

Additional observations from a re-analysis of the deposited data

Results flagged for a closer look

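2 genes are listed because their KI and WT arrays separated in opposite directions in the populations. The share of all genes that did so was not counted. Taken singly, KI lay below WT in ST-HSC for 11.2% of all genes and above WT in GMP for 8.26%. For Samd9l all KI arrays lay below all WT arrays in ST-HSC (4.56 to 5.68 beside 5.81 to 7.35) and above them in GMP (4.72 to 5.81 beside 3.50 to 4.71), and the difference between the KI minus WT differences was 2.42 (limma adjusted p = 0.320). For Parp9 the same held, with 7.90 to 8.22 beside 8.41 to 9.32 in ST-HSC, 7.40 to 7.87 beside 5.26 to 7.34 in GMP, and a difference of 1.85 (limma adjusted p = 0.483). Neither difference between the populations passed the adjustment over all probe sets.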

How the results depend on the processing

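In ST-HSC the count of 8 lower genes became 13 with probe sets averaged per gene, 2 with SAM, 15 without WT replicate 2 of both populations, 4 without WT replicates 1 and 3, and 3 with the Xist level as a covariate. Leaving out 1 array gave 4 to 10, with 5, 4, 5 and 5 when it was KI ST-HSC replicate 1, KI ST-HSC replicate 2, WT ST-HSC replicate 2 or WT ST-HSC replicate 3. In GMP the count of 3 lower genes became 0 with the 6 GMP arrays alone, 5 with probe sets averaged, 0 with SAM, 9 without WT replicate 2, 0 without WT replicates 1 and 3, and 0 with the Xist covariate. Leaving out 1 array there gave 2 to 6, with 6 without WT GMP replicate 2. As above, the fits without WT replicate 2 are descriptions, since it was singled out for low values. Over all probe sets, 996 were called in ST-HSC and 959 in GMP in the main fit, in either direction. SAM called 162 and 43, and limma on the 6 arrays of each population alone called 796 and 246. With 1 array left out these totals were 491 to 1039 and 548 to 1093. The 0 higher genes in GMP became 2 without WT replicates 1 and 3 and 1 with the Xist covariate. Array centring, quantile normalization within each population, both filters on low values, the probe set filter, the trended robust prior and a limit of 1 on the difference left each count within 1.5 times, and no called gene changed direction in any fit. Some of these changed which genes were called in ST-HSC. Oas2 was lost with centring, the limit of 1, the filter of log2 6 in 3 arrays and the trended robust prior. Mx1 was lost with both filters on low values, and Ube2l6 with the filter on the mean. Oasl2 was gained with both of those filters and the trended robust prior, and Oas3 with the log2 filter. The 6 ST-HSC arrays alone also gave 8 lower genes, 5 of them shared: Mx1, Ube2l6 and Oas2 were lost and Dhx58, Oasl2 and Rtp4 gained. Replicate numbers did not pair KI with WT (correlations of deviations from -0.04 to 0.07). WT ST-HSC with WT GMP gave 0.15, 0.16 and 0.06. With the replicate number as a block the counts were 8 and 3 again, but Ifit1 and Oas2 were lost in ST-HSC (limma adjusted p of 0.0790 and 0.0797) and Oas3 and Oasl2 gained. Interactions stayed at 0 in every limma fit. Causes were not tested, and 3 arrays a group limit the precision of all of these counts.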
